A study of Mus musculus with 8 samples.

Results

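Interferon-stimulated genes and the genes of class I antigen presentation were examined in tibialis anterior muscle with and without Carm1, a protein arginine methyltransferase also known as PRMT4. The set held 39 genes, a given list of interferon-stimulated and class I genes matched by symbol, out of 24341 genes in each table. All 39 were found, and 36 reached the level at which a gene was tested, 1 scaled FPKM or more in 4 or more libraries. Dhx58, an RNA sensor, and Oas1a and Mx1, antiviral effectors, did not reach it. RNA-seq libraries came from 8 mice of 12 weeks on chow, described as male. The 4 knockout animals (Carm1 skm-/-) carried floxed Carm1 and a hemizygous HSA-Cre transgene, whose human skeletal actin promoter is active in muscle fibres. The 4 control animals (Carm1 skm+/+) carried floxed Carm1 without Cre, so that both groups shared the floxed allele while Cre and the loss of Carm1 went together. FPKM give fragments per transcript length as a share of the mapped fragments of a library. They were scaled between libraries, and each difference below is knockout minus control on log2(scaled FPKM + 1), which understates the change of genes with low values.

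Interferons bind receptors on the cell surface and activate Janus kinases, which phosphorylate STAT proteins. Type I interferons act through a complex of STAT and IRF9 proteins that binds the interferon-stimulated response element, and interferon gamma acts through the gamma-activated sequence. The induced genes encode sensors of viral RNA, proteins that block viral entry, translation or budding, GTPases that attack the membranes around intracellular pathogens, and the machinery that loads peptides on MHC class I. Healthy muscle fibres are known for low class I levels, and class I on the fibre surface is a feature of inflammatory myopathies. Whole muscle also holds endothelial, connective tissue and immune cells, which express many of the same genes. In such bulk samples, fewer cells of a type and less RNA per cell cannot be told apart.

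Promoter sequence was available for 33 of the 39 genes from RefSeq (GRCm38.p6, from 250 bases before the start to 50 after it). Dhx58, Mx1, Parp14, Parp9, Tap2 and Usp18 had no entry. On either strand, GAAANNGAA, the core repeat of the interferon-stimulated response element, stood in 20 of the 33 genes (60.6%), against 9.76% of all 27025 genes in the table. It stood in 4 of 4 RNA sensors, 5 of 5 inducible GTPases, 8 of 13 antiviral effectors, 2 of 6 transcription factors and 1 of 5 class I genes. TTCNNNGAA, the core of the gamma-activated sequence, stood in 11 of the 33 (33.3%), against 9.55% of all genes, and 7 of the genes held both. Copies of a motif that overlap were each accepted, and a gene with several windows was counted once. These are matches of letters and not shown sites. The patterns are strict, so a window without a match may still hold a variant of either element. The stretches below lie before the start site and show the repeat in genes of each role. Capitals mark 1 copy in each. Isg15 also holds copies that overlap the one marked, and Ifit1 holds a further copy in lower case. They run 5′ to 3′ on the strand of the gene, and a repeat on the other strand reads as its reverse complement.
Stat2, chr10:128270257-128270305, + strand: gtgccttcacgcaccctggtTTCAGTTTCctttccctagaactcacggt
Ifih1, chr2:62646339-62646387, - strand: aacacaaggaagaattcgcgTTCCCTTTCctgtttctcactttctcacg
Isg15, chr4:156200862-156200910, - strand: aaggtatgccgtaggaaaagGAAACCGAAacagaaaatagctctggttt
Ifit1, chr19:34640785-34640833, + strand: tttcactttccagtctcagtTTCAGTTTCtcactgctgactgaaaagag
Rsad2, chr12:26456543-26456591, - strand: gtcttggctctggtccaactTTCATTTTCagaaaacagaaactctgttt
Gbp7, chr3:142530264-142530312, + strand: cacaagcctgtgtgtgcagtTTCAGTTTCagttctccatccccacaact
Igtp, chr11:58199502-58199550, + strand: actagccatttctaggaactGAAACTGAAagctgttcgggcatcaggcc
B2m, chr2:122147528-122147576, + strand: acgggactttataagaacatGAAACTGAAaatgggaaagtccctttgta

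Irf2 and Xaf1 were the genes whose knockout and control libraries did not overlap, and 200 bases before their start sites are shown for that reason, from 250 to 51 bases before the start. Irf2 held GAAANNGAA and TTCNNNGAA side by side, both in capitals. The whole window of Xaf1 held neither.
Irf2, chr8:46739495-46739694, + strand: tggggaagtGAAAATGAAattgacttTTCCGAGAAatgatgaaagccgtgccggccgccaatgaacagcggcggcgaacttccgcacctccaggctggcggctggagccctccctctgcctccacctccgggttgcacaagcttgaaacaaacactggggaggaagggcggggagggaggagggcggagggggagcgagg
Xaf1, chr11:72301379-72301578, + strand: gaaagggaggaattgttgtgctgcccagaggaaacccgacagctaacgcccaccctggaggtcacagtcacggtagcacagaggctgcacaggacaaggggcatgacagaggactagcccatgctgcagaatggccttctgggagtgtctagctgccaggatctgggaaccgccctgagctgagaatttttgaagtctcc

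Carm1 averaged 15.4 ± 2.57 scaled FPKM in knockout muscle and 30.5 ± 4.82 in control muscle (SD, n = 4 each), with a log2 difference of -0.94 and p = 0.0286 in a 2-sided exact permutation test, which cannot go lower with 70 ways to assign the libraries. Summed FPKM lay between 604428 and 681042 per library, and relative depth from 81.1% of the deepest library upwards. Read counts are not given, so the precision of a single value is unknown. The RNA Xist, which marks female cells, stood at 19.6 to 22.9 FPKM in knockout 2, knockout 4 and control 1 and at no more than 0.0662 in the other 5 libraries. The Y-linked gene Eif2s3y stood at no more than 0.112 FPKM in those 3 and at 42.3 to 58.1 in the other 5, which goes against the male label of 3 animals. Myh2, the myosin of oxidative fast fibres, was also higher in the 3 libraries, at 764 to 1540 FPKM against 122 to 167 FPKM in the rest. The groups of genes and the genes in which the genotypes did not overlap are therefore also given within the libraries without Xist (knockout 1 and 3 against control 2, 3 and 4) and with it (knockout 2 and 4 against control 1 alone). Sex and fibre type cannot be told apart from one another in this split.

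None of the 36 interferon and class I genes passed the test for a difference between knockout and control muscle. With limma across all 11096 genes tested and a Benjamini-Hochberg adjusted p under 0.05, 40 genes were called, 0.36% of those tested, 22 higher and 18 lower in the knockout (36 higher and 13 lower without scaling, where the median of all genes was 0.07). The count was 2 to 27 when any 1 library was left out. The estimates of the 36 genes lay on both sides of 0, with 17 higher and 19 lower in the knockout. Without scaling 23 were higher (63.9%, against 66.9% of all genes) and 13 lower. Their median log2 difference was -0.004, beside -0.002 over all genes. Leaving out 1 library moved it to between -0.07 (without knockout 3) and 0.07 (without knockout 2). It was also above 0 without control 1 (0.02) and without control 4 (0.03), and below 0 without any other library. An unadjusted p under 0.05 was reached by 2 of the 36, against 13.1% of all genes. The same genes, Xaf1 and Irf2, were the only 2 whose groups did not overlap, against 8.31% of all genes. Both shares were below that of the tested genes at large.

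**Figure D1:**
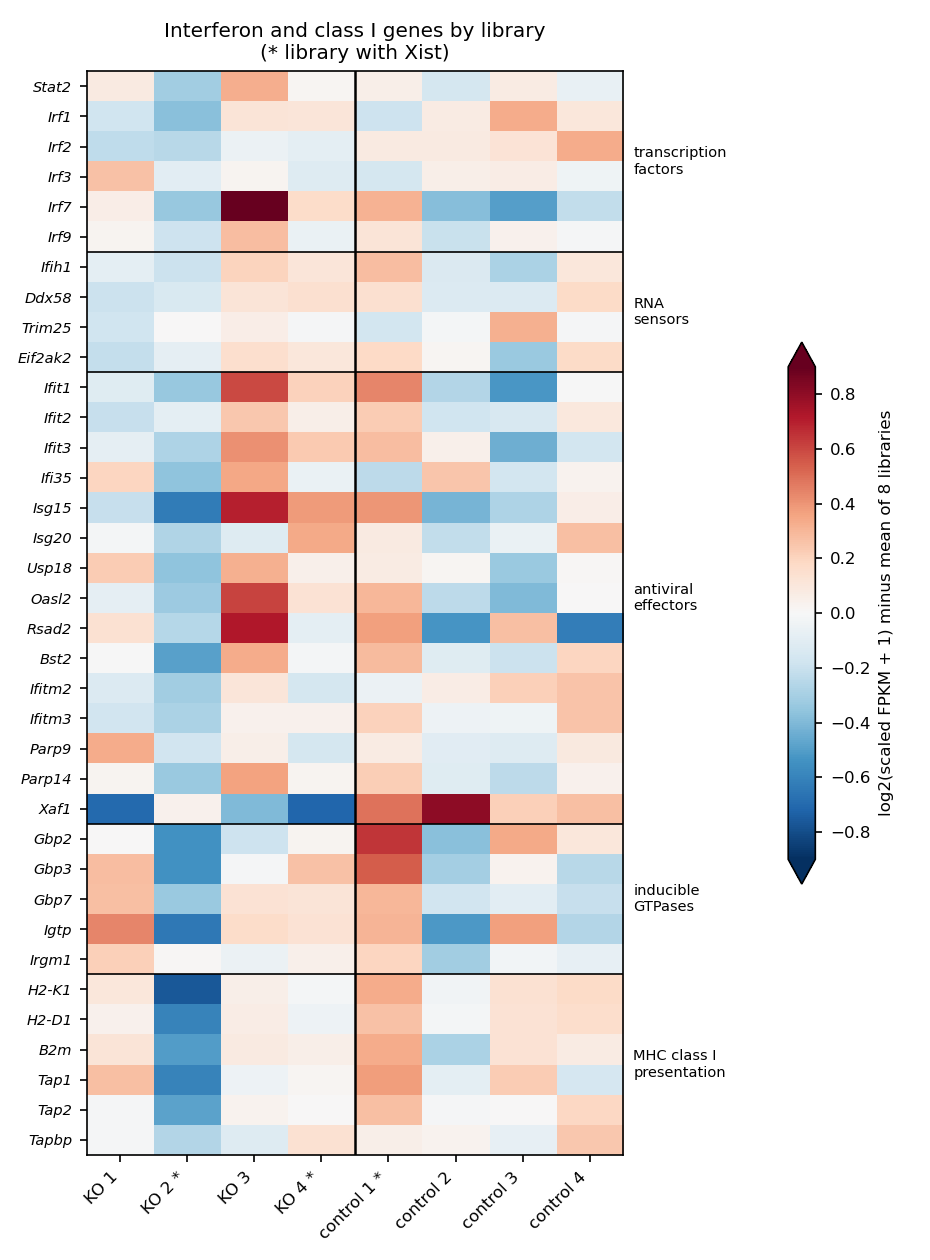
Each cell gives a gene's log2(scaled FPKM + 1) in one library minus its mean over the 8 libraries, with the 4 knockout libraries left of the 4 control libraries, genes in rows by role, and values beyond the ends of the colour scale drawn in its end colours. Knockout 2 is blue down most of the rows, as the lowest library for 22 of 36 genes, and knockout 3 is the highest for 13.

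Of the 6 transcription factors, 4 were higher and 2 lower in the knockout, with a median log2 difference of 0.03 (0.16 without Xist, -0.22 with it). Irf2 encodes a repressor that competes with Irf1 for the same promoter elements. It had 5.52, 5.40, 6.36 and 6.16 scaled FPKM in knockout 1 to 4, against 7.07, 7.05, 7.29 and 8.59 in control 1 to 4. All knockout libraries lay below all control libraries, and the log2 difference was -0.31 ± 0.09 (SE). The adjusted p was 0.183, so the difference did not pass the threshold across all genes. The estimate was -0.32 without Xist and -0.25 with it. Irf2 lies at chr8:46739732-46847458 on the + strand (mm10). It overlaps 3 annotated genes that are not protein-coding (Gm31172, Gm45479 and Gm45481).

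Irf7, the factor that amplifies type I interferon production, had 3.39, 2.33, 6.92 and 3.73 scaled FPKM in knockout 1 to 4, against 4.23, 2.23, 1.98 and 2.62 in control 1 to 4. The groups overlapped, with knockout 3 well above the rest and control 1 the highest control. Its log2 difference of 0.40 ± 0.27 (adjusted p = 0.572) was the highest among the 36 genes. Irf3, the constitutive factor that acts downstream of RNA and DNA sensing, was the most abundant of the group by FPKM. It had 16.7, 12.8, 13.97 and 12.6 scaled FPKM in knockout libraries and 12.2, 14.3, 14.4 and 13.4 in control libraries, a log2 difference of 0.04 ± 0.10. Stat2 and Irf9, which join in the complex induced by type I interferon, had log2 differences of 0.05 and 0.03, and Irf1 one of -0.16. Irf1, Irf3, Irf7 and Irf9 overlap annotated protein-coding genes (Gm17334, Bcl2l12, Phrf1 and Rnf31), which leaves their FPKM uncertain.

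Among the RNA sensors, 1 of 4 tested genes was higher and 3 were lower, with log2 differences from -0.06 to 0.02. Their median was 0.00 without Xist and -0.16 with it. Without scaling all 4 were higher, each by less than the median of all genes in that fit. Trim25, the ubiquitin ligase that activates RIG-I, had 4.40, 5.11, 5.36 and 5.06 scaled FPKM in knockout libraries, against 4.43, 5.03, 6.62 and 5.04 in control libraries, with a log2 difference of -0.06 ± 0.11. Ddx58, which encodes RIG-I itself, had 1.46, 1.54, 2.03 and 2.10 scaled FPKM in knockout libraries and 1.58 to 2.16 in control libraries. The difference was -0.04 ± 0.12. Ifih1, which encodes the sensor MDA5, and Eif2ak2, the kinase that stops translation on double-stranded RNA, had differences of 0.02 and -0.02. Dhx58, which encodes the RIG-I relative LGP2, stood below the level for testing at 0.561 to 0.862 scaled FPKM in knockout libraries and 0.511 to 0.719 in control libraries.

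Of 15 antiviral effectors tested, 9 were higher and 6 lower, with a median log2 difference of 0.04 (0.24 without Xist, -0.33 with it). Xaf1, an interferon-induced gene whose product binds the apoptosis inhibitor XIAP, had the most negative difference of all 36 genes. It stood at 2.33, 4.56, 3.10 and 2.29 scaled FPKM in knockout 1 to 4, against 6.59, 8.44, 5.27 and 5.51 in control 1 to 4. The groups did not overlap, although knockout 2 came within 1 FPKM of the lowest control. The log2 difference was -0.89 ± 0.19, at an adjusted p of 0.102, which did not pass the threshold. With the presence of Xist as a covariate it was -0.92 at an adjusted p of 0.0615. It was negative without Xist (-0.98) and with it (-0.83), and between -1.08 and -0.77 under the 18 of 19 alternatives that tested it. The exception was the filter at a mean of 5 scaled FPKM, which Xaf1 did not reach. Xaf1 lies at chr11:72301629-72313733 on the + strand (mm10), and the annotation shows no gene overlapping it.

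The membrane proteins Ifitm2 and Ifitm3, which block viral entry, were by far the most abundant effectors by FPKM. Ifitm2 had 71.9, 62.9, 84.9 and 70.3 scaled FPKM in knockout libraries and 75.5, 82.4, 91.4 and 94.0 in control libraries. The groups overlapped, and the log2 difference was -0.24 ± 0.11 (adjusted p = 0.403). Ifitm3 had 110.4, 101.7, 128 and 128 scaled FPKM in knockout libraries and 144, 120.3, 121 and 148 in control libraries, with a difference of -0.19 ± 0.11 (adjusted p = 0.512). Ifitm2 overlaps the annotated gene Gm45717. Ifitm2 and Ifitm3 are related copies, and how reads were divided between them is not known.

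Isg15, a ubiquitin-like modifier and a standard readout of type I interferon, was chosen for display after its values were seen. It had 3.92, 2.66, 8.20 and 6.39 scaled FPKM in knockout libraries, against 6.47, 3.24, 3.67 and 4.91 in control libraries. The groups overlapped almost fully, with a log2 difference of 0.12 ± 0.29. Rsad2, which encodes viperin, had a difference of 0.26 ± 0.28, and Ifit1, Ifit3 and Oasl2 had 0.18, 0.14 and 0.16. Usp18, the protease that removes Isg15 from proteins, differed by 0.12, and Bst2, which tethers budding virions to the cell, by -0.09. Ifit2, Ifi35, Isg20, Parp9 and Parp14 lay between -0.04 and 0.06, and Parp9 overlaps the gene Dtx3l. Oas1a stood at 0.248 to 0.437 scaled FPKM in knockout libraries and 0.0837 to 0.306 in control libraries. Mx1 stood at 0.0666 to 0.119 in knockout libraries and 0.0606 to 0.169 in control libraries.

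**Figure D2:**
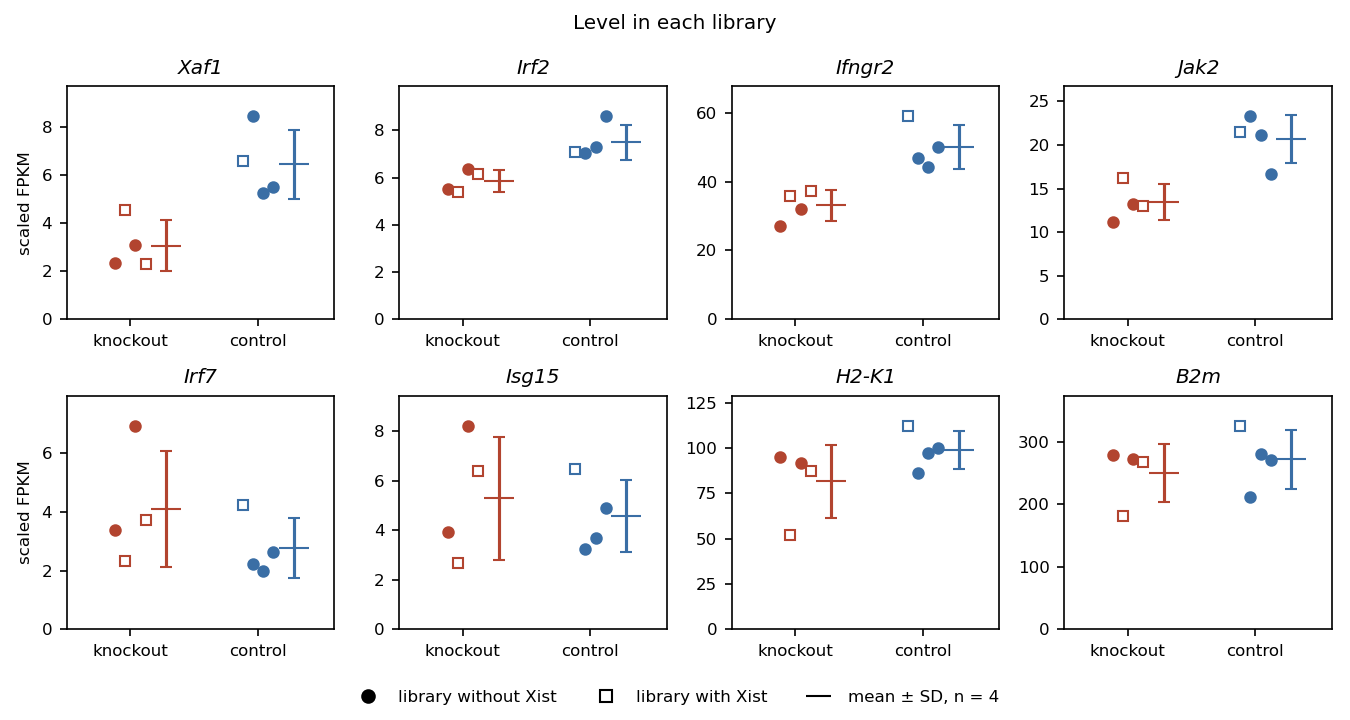
Level of 8 genes in scaled FPKM, with knockout libraries left and control libraries right, open squares for libraries with Xist, filled circles for those without, and bars for the mean ± SD of 4 libraries. The groups do not overlap for Xaf1, Irf2, Ifngr2 and Jak2, whereas for Irf7, Isg15, H2-K1 and B2m they do, and the lowest knockout point of H2-K1 and B2m is knockout 2.

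Of the 5 inducible GTPases, 3 were higher and 2 lower, with a median log2 difference of 0.05 (0.31 without Xist, -0.56 with it). Gbp2, a guanylate-binding protein, had 7.40, 4.73, 6.37 and 7.50 scaled FPKM in knockout libraries, against 12.1, 5.45, 9.61 and 7.99 in control libraries. Only control 2 stood within the knockout range, and the log2 difference was -0.35 ± 0.22 (adjusted p = 0.528). Irgm1, an immunity-related GTPase that guards host membranes, was the most abundant of the group by FPKM. It had 16.2, 13.9, 13.3 and 14.3 scaled FPKM in knockout libraries and 15.9, 10.9, 13.6 and 13.04 in control libraries, a difference of 0.11 ± 0.11. Gbp3, Gbp7 and Igtp differed by -0.01, 0.09 and 0.05. The Gbp genes are a family of close copies, and their FPKM are uncertain for that reason, while Igtp overlaps Irgm2.

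The 6 genes of class I presentation were each lower in the knockout, with log2 differences from -0.31 to -0.12 and a median of -0.20, and none passed the test. Among libraries without Xist their median was -0.03 and 2 of the 6 were higher, and among those with Xist it was -0.57 with none higher. B2m, the light chain of every class I molecule, was the most abundant of the 36 genes by FPKM. It had 279, 182, 272 and 268 scaled FPKM in knockout 1 to 4, against 325, 211, 281 and 271 in control 1 to 4, with a difference of -0.12 ± 0.17. H2-D1, a classical heavy chain, had 100.4, 64.1, 103 and 94.5 scaled FPKM in knockout libraries and 118, 96.5, 107 and 109 in control libraries. The difference was -0.27 ± 0.15 (adjusted p = 0.492). Tap2, a subunit of the transporter that carries peptides into the endoplasmic reticulum, had 8.23, 5.66, 8.51 and 8.31 scaled FPKM in knockout libraries and 10.2, 8.23, 8.29 and 9.55 in control libraries. Its difference was -0.22 ± 0.13 (adjusted p = 0.503). Tap1, the partner subunit, and Tapbp, which bridges the transporter to class I, differed by -0.18 and -0.13. B2m, Tap1 and Tapbp overlap the annotated genes Patl2, Psmb9 and Zbtb22. The locus deposited with the FPKM of B2m, chr2:122120108-122186189, is 60684 bases longer than the annotated gene. How this affects its FPKM is not known.

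In all 6 class I genes the lowest of the 8 libraries was knockout 2. Without that library the median of the 6 was -0.08, and 1 of the 6 was higher in the knockout. H2-K1, the other classical heavy chain, is shown after its values were seen. It had 51.7 scaled FPKM in knockout 2, against 87.4 to 95.0 in the other 3 knockout libraries and 86.3 to 112 in control libraries. Its log2 difference was -0.31 ± 0.19 over 8 libraries and -0.11 without knockout 2. H2-K1 and H2-D1 belong to the same family of related sequences, and how reads were divided between them is not known. Summed over 12 marker genes, endothelium, which expresses class I strongly, was also lowest in knockout 2, at 303 scaled FPKM against 318 to 409 in the other knockout libraries and 365 to 413 in control libraries. The 318 was knockout 1. There the 6 class I genes deviated from their 8-library means by a median log2 of 0.07, against -0.55 in knockout 2. Over 8 libraries 11 of the 12 markers were lower in the knockout, against 5604 of 11096 genes tested, with a median log2 difference of -0.16. Endothelium was not alone in this. Of the tested markers, 10 of 11 were lower for fibro-adipogenic cells (median -0.16) and 6 of 7 for muscle fibres (-0.24). For macrophages 1 of 10 was lower (0.11), and for blood 0 of 3 (0.03). Summed muscle fibre markers were lowest in knockout 2 too, at 40814 scaled FPKM over 7 of 13 markers, against 46841 to 66322 in the other knockout libraries and 61685 to 92107 in control libraries. The next lowest sums were those of knockout 4 (46841) and control 1 (61685), the other libraries with Xist and high Myh2, and the rest had 64307 or more. The sum thus follows the Xist split and does not measure all fibre RNA. The other 6 fibre markers, Acta1, Ckm and Myh4 among them, were left out because at least 1 library lists them with a failed estimate. The part of either in the class I values was not tested.

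Knockout 2 was the lowest library for 22 of the 36 genes (61.1%), against 14.9% of all genes tested, including 4 of 5 GTPases and 9 of 15 effectors. Knockout 3 was the highest for 13 of 36 (36.1%, against 9.54% of all genes), and for 10 of the 15 effectors. Control 1 was the highest for 10 of 36 (27.8%, against 12.8% of all genes), including 5 of the 6 class I genes. The median deviation of the 36 genes from their 8-library means was 0.00, -0.32, 0.12 and 0.04 in knockout 1 to 4, and 0.25, -0.11, -0.03 and 0.07 in control 1 to 4. Over all genes these medians lay between -0.01 and 0.00 in every library. The SD of these per-library medians of the 36 genes was 0.19 over knockout libraries and 0.15 over control libraries. Knockout 4, which shares Xist and a high Myh2 level with knockout 2, was lowest for 1 of the 36 genes.

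**Figure D3:**
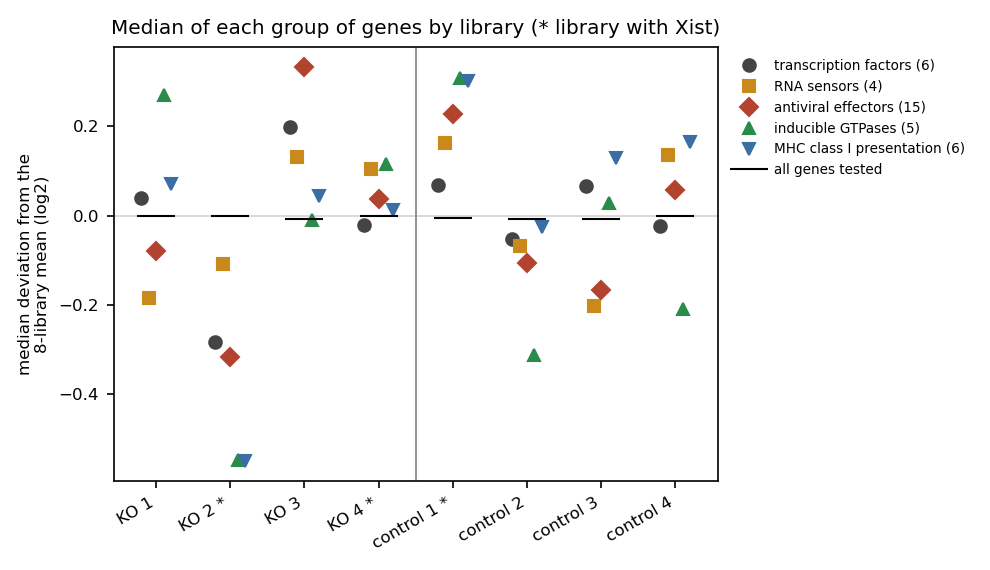
Median deviation from the 8-library mean (log2) of each group of genes in each library, knockout libraries left of control libraries, with the number of genes in brackets, an asterisk for libraries with Xist and a black bar for all genes tested. GTPases and class I genes sit near -0.55 in knockout 2 and near 0.30 in control 1, and the effectors are highest in knockout 3 at 0.33.

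Markers of immune cells were read in the same libraries. Summed macrophage markers (12 genes) ranged from 42.0 to 76.5 scaled FPKM in knockout libraries and from 47.4 to 81.3 in control libraries. They were lowest in knockout 3, where the effectors were highest. The list of 9 dendritic cell markers summed to between 35.0 and 50.1 in knockout libraries and between 38.0 and 49.8 in control libraries, lowest in knockout 2 and highest in knockout 3. Most of that sum is Bst2, itself one of the 36 genes, and Siglech, the defining marker of plasmacytoid cells, stood at no more than 0.283. B cell markers summed to between 0.544 and 1.12 in knockout libraries and between 0.366 and 1.23 in control libraries, and neutrophil markers to between 0.685 and 3.26 in knockout libraries and between 0.671 and 3.72 in control libraries, with Mpo at 0 throughout. T and NK cell markers summed to between 2.67 and 8.94 in knockout libraries and between 1.42 and 2.73 in control libraries. Cd3e made up most of that sum, and Cd3d, Cd3g, Cd4 and Cd8a stood at no more than 0.165 in any library. Markers of fibro-adipogenic cells summed to between 406 and 594 in knockout libraries and between 474 and 795 in control libraries, and those of blood to between 191 and 417 in knockout libraries and between 173 and 296 in control libraries. No marker of these lists was called, and their part in the interferon gene values was not tested.

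Most of the list was higher in the knockout among libraries without Xist and lower among those with it. That the direction of the list differs between library subsets was known from earlier results of these data. The counts below therefore describe this difference and do not test it. Among the 5 libraries without Xist, 23 of the 36 genes were higher in the knockout (63.9%, against 48.1% of all genes), with a median log2 difference of 0.14. Among the 3 libraries with Xist, 4 of the 36 were higher (11.1%, against 50.7% of all genes), with a median of -0.33. No member was called in either. Adjusted p was under 0.05 for 0.0721% of all genes without Xist and 0.00901% with it, in the fit of all 8 libraries that shares one estimate of the spread (8 genes and 1 gene). When the subsets were fitted separately, 3 and 16 genes were called. An unadjusted p under 0.05 was reached by 5 of 36 members without Xist, against 14.8% of all genes, and by 4 of 36 with Xist, against 6.33% of all genes. Since control 1 is the only control with Xist and is assumed in the fit to vary like the other groups, every value with Xist rests on that library.

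The difference between the 2 contrasts was tested as an interaction. None of the 36 genes passed it, each at an adjusted p of 0.998, and 0.018% of all genes did. An unadjusted p under 0.05 for the interaction was reached by 7 of the 36 (Irf7, Rsad2, Bst2, Parp9, Parp14, Gbp3 and Gbp7), against 2.66% of all genes. All 7 were higher in the knockout without Xist and lower with it. Since this difference in direction was known beforehand, the 7 genes give no separate support for it. Irf7 differed by 0.85 ± 0.26 without Xist and by -0.40 ± 0.35 with it. Gbp7 differed by 0.36 ± 0.14 without Xist and by -0.41 ± 0.19 with it. In both genes knockout 2 was the lowest knockout library and control 1 the highest control library.

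**Figure D4:**
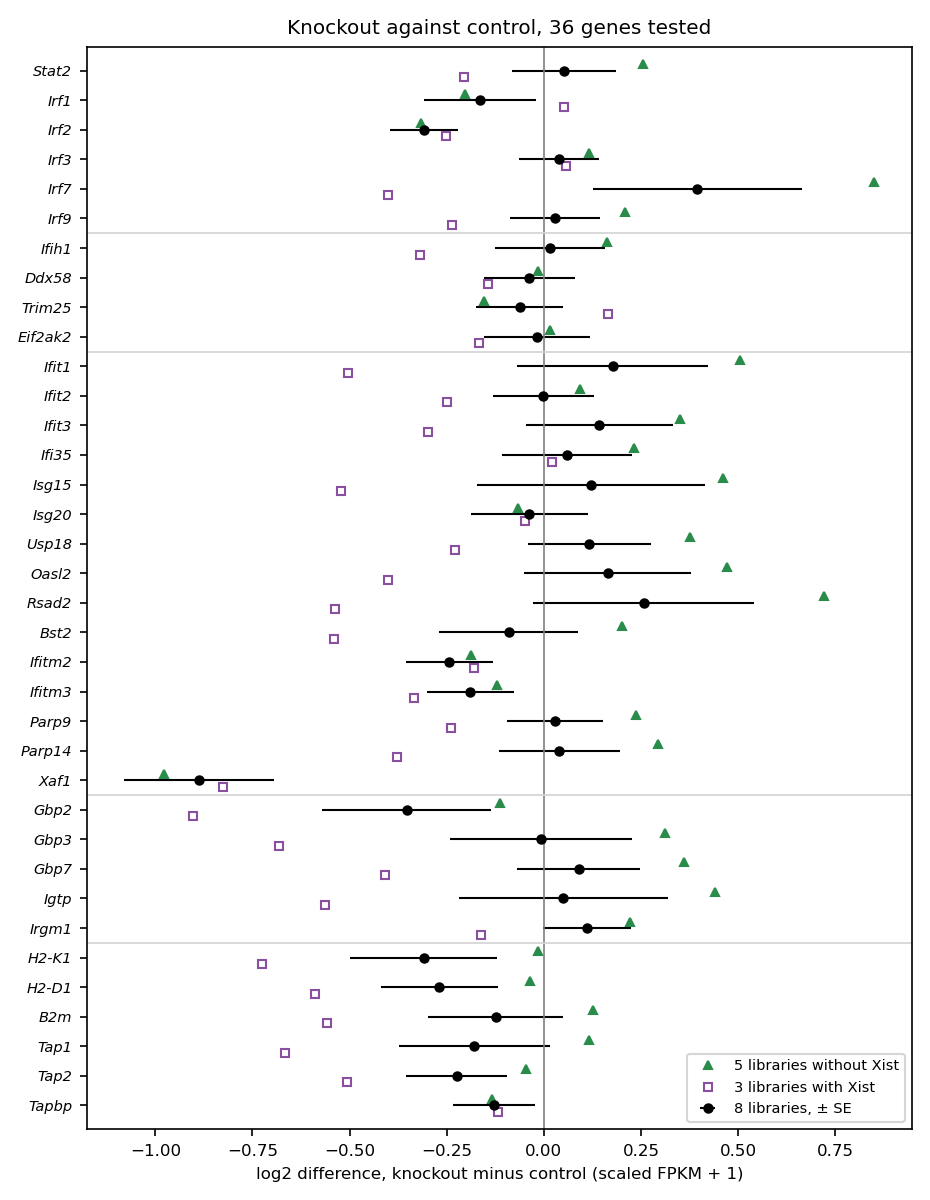
Log2 difference, knockout minus control, of the 36 genes tested, with black points and bars for the estimate and SE over 8 libraries, green triangles for the 5 libraries without Xist and open squares for the 3 with Xist. Most triangles lie right of 0 and most squares left of it. The points of Xaf1 and Irf2 lie left of 0 in all 3 readings. So do those of Ddx58, Isg20, Ifitm2, Ifitm3, Gbp2, H2-K1, H2-D1, Tap2 and Tapbp.

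With the presence of Xist as a covariate over all 8 libraries, 223 genes were called, 2.01% of those tested. None of the 36 was among them. The median log2 difference of the 36 was -0.04 in that fit, and Xaf1 and Irf2 were again the only members with an unadjusted p under 0.05.

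Other genes of the pathway, 145 in lists chosen with earlier results of these data known, included 99 that were tested, and none was called over 8 libraries. Of the 99, 45 were higher and 54 lower in the knockout, with a median log2 difference of -0.03, and 9 (9.09%) had groups that did not overlap, beside the 8.31% of all genes. The 8 interferon genes listed were all below the level for testing, at no more than 0.0663 scaled FPKM in any library. Of 15 receptor and JAK-STAT genes tested, 5 were higher and 10 lower, with a median of -0.05 (-0.10 without Xist, -0.005 with it). Ifngr2, the signalling chain of the interferon gamma receptor, had 27.1, 35.9, 32.0 and 37.3 scaled FPKM in knockout 1 to 4, against 58.9, 46.8, 44.1 and 50.2 in control 1 to 4. The groups did not overlap. The log2 difference was -0.58 ± 0.13 with an adjusted p of 0.101, and with Xist as a covariate it was called, at -0.66 and an adjusted p of 0.0147. It was -0.66 without Xist and -0.67 with it.

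Jak2, the kinase bound to that chain and to many other cytokine receptors, had 11.2, 16.2, 13.3 and 12.99 scaled FPKM in knockout libraries and 21.5, 23.3, 21.2 and 16.7 in control libraries. The groups did not overlap, narrowly between knockout 2 and control 4. The difference was -0.59 ± 0.13 with an adjusted p of 0.108, and -0.63 with an adjusted p of 0.0486 under the covariate. Without Xist it was -0.69, and with it -0.53. The partner chain Ifngr1 differed by -0.11 ± 0.09, and the type I receptor chains Ifnar1 and Ifnar2 by 0.06 and -0.11. These last 3 genes were named after their values were seen.

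Of 12 tested adaptors and kinases of nucleic acid sensing, 4 were higher and 8 lower, with a median of -0.02 (-0.02 without Xist, -0.04 with it). Trex1, a DNA exonuclease that limits sensing of cytosolic DNA, stood at 25.2 to 27.8 scaled FPKM in knockout libraries and 19.8 to 24.003 in control libraries, a difference of 0.24 ± 0.08 (adjusted p = 0.266), at 0.26 without Xist and 0.15 with it. Irf5, an interferon regulatory factor of immune cells, had 9.67, 9.65, 6.67 and 7.07 scaled FPKM in knockout libraries and 9.39, 18.4, 8.88 and 15.2 in control libraries. Its groups overlapped, at -0.55 ± 0.23 (adjusted p = 0.365). Of 16 tested genes of the immunoproteasome and of class I loading beyond the 6 above, 5 were higher and 11 lower, with a median of -0.12. That median was -0.03 without Xist and -0.30 with it. Psme1, a subunit of the PA28 proteasome activator, had 52.2, 44.4, 74.7 and 57.6 scaled FPKM in knockout libraries and 89.7, 81.0, 75.0 and 84.3 in control libraries. The difference was -0.54 ± 0.15 (adjusted p = 0.173), with knockout 3 just below control 3, and it was -0.35 without Xist and -0.81 with it. Psmb10, an immunoproteasome subunit, had 17.2, 15.6, 16.01 and 18.3 scaled FPKM in knockout libraries and 20.2, 16.8, 19.9 and 18.5 in control libraries, which overlapped, and differed by -0.16 ± 0.09 (adjusted p = 0.484).

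The 6 class II genes tested were each higher in the knockout, in contrast to class I, with a median of 0.26. H2-Aa had 30.03, 27.6, 17.0 and 28.4 scaled FPKM in knockout libraries and 14.4, 17.2, 17.0 and 34.5 in control libraries. Its groups overlapped, at 0.35 ± 0.27 (adjusted p = 0.642). H2-DMa, which helps class II molecules exchange peptide, had 2.72, 1.82, 1.52 and 2.45 scaled FPKM in knockout libraries and 1.26, 1.16, 1.51 and 2.31 in control libraries. It differed by 0.29 ± 0.17 (adjusted p = 0.501). The class II median was 0.01 without Xist, where 3 of the 6 were higher, and 0.75 with it, where all 6 were. The values with Xist rest on control 1 as the only control.

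Of 50 further interferon-stimulated genes tested, 25 were higher and 25 lower, with a median of -0.01. Without Xist 35 of the 50 were higher (70%, against 48.1% of all genes), with a median of 0.12. With Xist 13 of the 50 were higher (26%, against 50.7% of all genes), with a median of -0.13. Over 8 libraries 5 had groups that did not overlap, Gbp6, Tor1b and Ifitm1 higher and Ifi27 and Nmi lower in the knockout. Gbp6, a guanylate-binding protein, had 1.94, 2.29, 1.74 and 2.04 scaled FPKM in knockout libraries and 1.28, 0.627, 0.974 and 0.996 in control libraries. The groups did not overlap, with a difference of 0.62 ± 0.11 (adjusted p = 0.0663; 0.61 without Xist, 0.47 with it), and with Xist as a covariate Gbp6 was called, at 0.56 and an adjusted p of 0.0342. Its close copy Gbp10, named after its values were seen, had 3.17, 2.25, 2.84 and 1.73 scaled FPKM in knockout libraries and 0.545, 1.09, 2.05 and 1.09 in control libraries. It differed by 0.70 ± 0.21 (adjusted p = 0.205), and under the covariate by 0.83 with an adjusted p of 0.0366. Reads could be split between Gbp6 and Gbp10. Tor1b, an ATPase of the endoplasmic reticulum and nuclear envelope, stood at 17.97 to 19.8 scaled FPKM in knockout libraries and 14.7 to 16.0 in control libraries, a difference of 0.28 ± 0.07 (adjusted p = 0.132), at 0.24 without Xist and 0.28 with it. The last 3 of the 5 were named after their values were seen. Ifitm1, a further entry-blocking protein, stood at 3.999 to 5.32 scaled FPKM in knockout libraries and 2.26 to 3.72 in control libraries, a difference of 0.55 ± 0.14 (adjusted p = 0.138), at 0.64 without Xist and 0.25 with it. Ifi27 stood at 29.9 to 41.87 in knockout libraries and 41.98 to 56.4 in control libraries, a difference of -0.42 ± 0.14 (adjusted p = 0.238), at -0.44 without Xist and -0.31 with it. Nmi, which binds STAT proteins, stood at 4.75 to 6.54 in knockout libraries and 6.92 to 7.29 in control libraries, a difference of -0.32 ± 0.10 (adjusted p = 0.214), at -0.29 without Xist and -0.34 with it. Ifngr2, Jak2, Gbp6 and Gbp10 were the 4 of 99 (4.04%) called under the covariate, beside 2.01% of all genes, with Ifngr2 and Jak2 lower and Gbp6 and Gbp10 higher in the knockout.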

How the data were processed

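Libraries were prepared from total RNA of tibialis anterior with a TruSeq kit, per the labels' protocols. STAR, Cufflinks and the build mm10 are named, without versions, in the submitters' processing notes. The authors deposited FPKM, 1 table per library. The sources used here give neither the annotation nor read counts. Cufflinks divides reads of overlapping genes by estimation. The tests left out 23 genes not marked OK in every table.

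Libraries were scaled by the median of ratios (factors of 0.904 to 1.07). Genes were tested on log2(scaled FPKM + 1) with limma 3.58.1 in R 4.3.3 (lmFit, eBayes with trend), adjusted over all genes tested by Benjamini-Hochberg, threshold 0.05. A further fit had 4 cells of genotype by presence of Xist (at least 1 FPKM). The method was tested in 5 simulations of 11096 genes with 200 of them changed. It recovered 40% of log2 changes of 0.5 and 83% of changes of 1, with 5.17% of calls false. Of log2 interactions it recovered 17% at 1 and 70% at 2, with 4.33% of calls false. The interval columns were not used, since in 99.87% or more of genes they repeat the value. Gene positions are from GENCODE M21, and Python 3.11.15 with pandas 2.3.3 served for the rest. The 4 mice per group are separate animals per the labels.

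The genes and lists were chosen with earlier results of these data known. Of the 39 genes, values per library are given for those called or without overlap and, in each role, the 2 with the smallest p and the most abundant. Of each pathway list, the called genes or else the 2 with the smallest p are named, and genes outside this rule are marked as such. Alternatives covered the pseudocount, filter, scaling, eBayes, replicate number, Xist and left-out libraries. Same-numbered libraries of the 2 genotypes deviated with correlations from -0.432 to 0.349, so the numbers were not taken as pairs.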

Additional observations from a re-analysis of the deposited data

Results flagged for a closer look

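In 4 of 78 groups of 4 libraries, 1 library stood far from the other 3 by Dixon's ratio, the gap to the nearest library over the whole range, where chance gives about 1 in 20. B2m was lowest in knockout 2 (ratio 0.88), at 182 scaled FPKM against 268 to 279 in the other knockout libraries. Tap2 was also lowest in knockout 2 (ratio 0.902), at 5.66 against 8.23 to 8.51. Irf2 was highest in control 4 (ratio 0.85), at 8.59 against 7.05 to 7.29 in the other control libraries. Oas1a, which was not tested for a difference, was lowest in control 3 (ratio 0.853), at 0.0837 against 0.273 to 0.306.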

How the results depend on the processing

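None of the 36 genes was called for knockout against control under any alternative. Of all genes, 40 were called, and 32 with a pseudocount of 0.1, 8 with no filter, 15 at a mean of at least 5 FPKM, 49 without scaling (36 higher and 13 lower, with a median of all genes of 0.07), 32 after quantile normalization, 45 with robust eBayes, 223 with Xist as a covariate, 3 in the 5 libraries without Xist, 16 in the 3 with it, 13 without knockout 2 and 4 together, and 2 to 27 when 1 library was left out. The median of the 36 genes was -0.07 to 0.07 when 1 library was left out (lowest without knockout 3, highest without knockout 2; 0.02 without control 1 and 0.03 without control 4) and 0.05 without scaling. At a mean of at least 5 FPKM it was -0.13 over 18 genes, and it was -0.33 in the 3 libraries with Xist, 0.14 in the 5 without and 0.09 without knockout 2 and 4. The interaction was passed by 2 genes, and by 30 with no filter, 3 at a mean of at least 5 FPKM, 1 after quantile normalization, 1 with robust eBayes, and 0 to 5 when 1 library was left out. Control 1 could not be left out there. With the replicate number as a block, 0 genes were called and Carm1 stood at -0.94 with an adjusted p of 0.189. The interaction in that fit, with 1 residual degree of freedom, was passed by 105 of 11096 genes. Among them were the members Ifit1, Irf7 and Oasl2 (3 of 36). With 1 residual degree of freedom and control 1 as the only control with Xist, that fit cannot decide on an interaction. No conclusion is drawn from these 3 genes.

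The limma call of Carm1 (adjusted p = 0.0466) was lost with no filter (-0.94), in the 5 libraries without Xist (-0.80), in the 3 with it (-0.98), without knockout 2 and 4 together (-0.75) and whenever 1 library was left out (-1.02 to -0.84), always lower in the knockout. The sign of many members turned. In the 3 libraries with Xist it turned for Stat2 (-0.21), Irf1 (0.051), Irf7 (-0.40), Irf9 (-0.24), Ifih1 (-0.32), Trim25 (0.16), Ifit1 (-0.50), Ifit3 (-0.30), Isg15 (-0.52), Usp18 (-0.23), Oasl2 (-0.40), Rsad2 (-0.54), Parp9 (-0.24), Parp14 (-0.38), Gbp7 (-0.41), Igtp (-0.56) and Irgm1 (-0.16). In the 5 without Xist it turned for Eif2ak2 (0.017), Ifit2 (0.093), Bst2 (0.20), Gbp3 (0.31), B2m (0.13) and Tap1 (0.12). Without knockout 2 and 4 it turned for Ifit2 (0.017), Bst2 (0.12), Gbp3 (0.13), B2m (0.036) and Tap1 (0.022). Without scaling it turned for Ddx58 (0.017), Trim25 (0.013), Eif2ak2 (0.035), Ifit2 (0.051), Isg20 (0.022) and Gbp3 (0.067). Ifih1 turned with the covariate (-0.01) and after quantile normalization (-0.004). When 1 library was left out, the sign of these genes turned within their ranges: Irf3 -0.043 to 0.084, Stat2 -0.048 to 0.17, Irf9 -0.059 to 0.095, Ifih1 -0.075 to 0.11, Ddx58 -0.091 to 0.020, Trim25 -0.13 to 0.035, Eif2ak2 -0.13 to 0.049, Ifit2 -0.083 to 0.075, Ifi35 -0.047 to 0.19, Isg15 -0.090 to 0.35, Isg20 -0.16 to 0.048, Oasl2 -0.010 to 0.30, Bst2 -0.22 to 0.058, Parp9 -0.078 to 0.091, Parp14 -0.074 to 0.16, Gbp3 -0.11 to 0.17, Igtp -0.11 to 0.27 and B2m -0.24 to 0.022. Irf2 kept its direction under all 19 alternatives, and Xaf1 under the 18 that tested it. Ifitm2, Ifitm3, Gbp2, H2-K1, H2-D1, Tap2 and Tapbp were likewise lower in the knockout under all 19. With 1 more A in the response element repeat, 57.6% of members and 3.99% of all genes held it. The cause of these shifts was not tested. No read depth is given, so what depth limits is unknown, and members under 1 FPKM could not be compared.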
